A study of Mus musculus with 10 samples.

Results

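The genes studied here are 34 genes of glycolysis and of the response to low oxygen, measured in mouse aorta with and without the gene Ptgds. They were listed by name from the pathway. Each gene was represented by its brightest probe set, by the mean of the 9 arrays, among those that the platform table assigns to that gene alone. Of the 34 genes, 31 had such a probe set and all 31 passed the filter on low values, out of 14321 genes tested in all. The other 3 were not analysed here: the 3 probe sets that name Bnip3l also name its pseudogene, and no probe set of the table used here names Gpi1 or Eno1.

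Total RNA came from aortas of male mice of strain C57BL/6, group-housed with 12 hours of light and 12 of dark and fed chow. The wild type group carried no listed allele, and the Ptgds-/- group lacked lipocalin-type prostaglandin D synthase (L-PGDS), an enzyme that makes prostaglandin D2. The labels give no age, substrain, litter or hour of dissection, and they do not say which part of the gene the allele lacks or whether the perivascular fat was removed. Of 10 samples called biological replicates, wild type replicate 2 was excluded by the submitters, so 4 wild type arrays (replicates 1, 3, 4 and 5) and 5 knockout arrays (replicates 1 to 5) had values.

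Glycolysis splits glucose into pyruvate in the cytosol and yields ATP without oxygen, and lactate dehydrogenase then turns pyruvate into lactate to keep the pathway running. Hypoxia-inducible factors (HIF) are transcription factors whose alpha subunits are marked for breakdown by oxygen-dependent prolyl hydroxylases, so that they gather when oxygen is low and raise most glycolytic enzymes together with genes of angiogenesis, mitophagy and collagen maturation. In the vessel wall, smooth muscle draws much of its ATP from aerobic glycolysis, and Epas1 (HIF-2 alpha) is abundant in endothelium. The comparison asks how the aorta's transcripts differ between the genotypes, and within the list how the glycolytic enzymes compare with the other HIF targets.

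Every level below is a deposited log2 value, and every difference is the knockout mean minus the wild type mean, given with its standard error (SE) from limma. Array medians lay between 5.88 and 5.97, and 70.1% to 71.4% of the probe sets exceeded 4. Ptgds, the targeted gene, lay between 8.68 and 10.31 on the wild type arrays and between 3.67 and 4.40 on the knockout arrays (difference −5.30, SE 0.32, adjusted p 0.00059), and no array went against its label. The tissue label was checked against 8 smooth muscle markers, whose mean lay between 12.45 and 12.70 on every array. In bulk tissue, fewer cells of a type and less RNA per cell cannot be told apart. Precision is limited by having 9 arrays, and levels of different probe sets were not compared with each other.

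No member passed an adjusted p of 0.05 in limma, the only test run, where 8 of 14321 genes (0.0559%) did. The adjusted p of the 31 members ran from 0.124 to 0.911. The means of 27 members were lower in the knockout and those of 4 were higher, and the median difference was −0.158 against 0.027 over all tested genes, of which 43.3% were lower. At an unadjusted p under 0.05 there were 7 members (22.6%), close to the background of 19.9% over all tested genes. By direction, 5 members (16.1%) were lower, where 7.12% of all genes were lower at that p, and 2 (6.5%) were higher, where 12.8% were. The groups did not overlap for 3 members (9.7%), against 6.76% of all genes. For 24 of the 31 members the 95% confidence interval of the difference lay within a 1.5-fold difference in either direction.

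**Figure D1:**
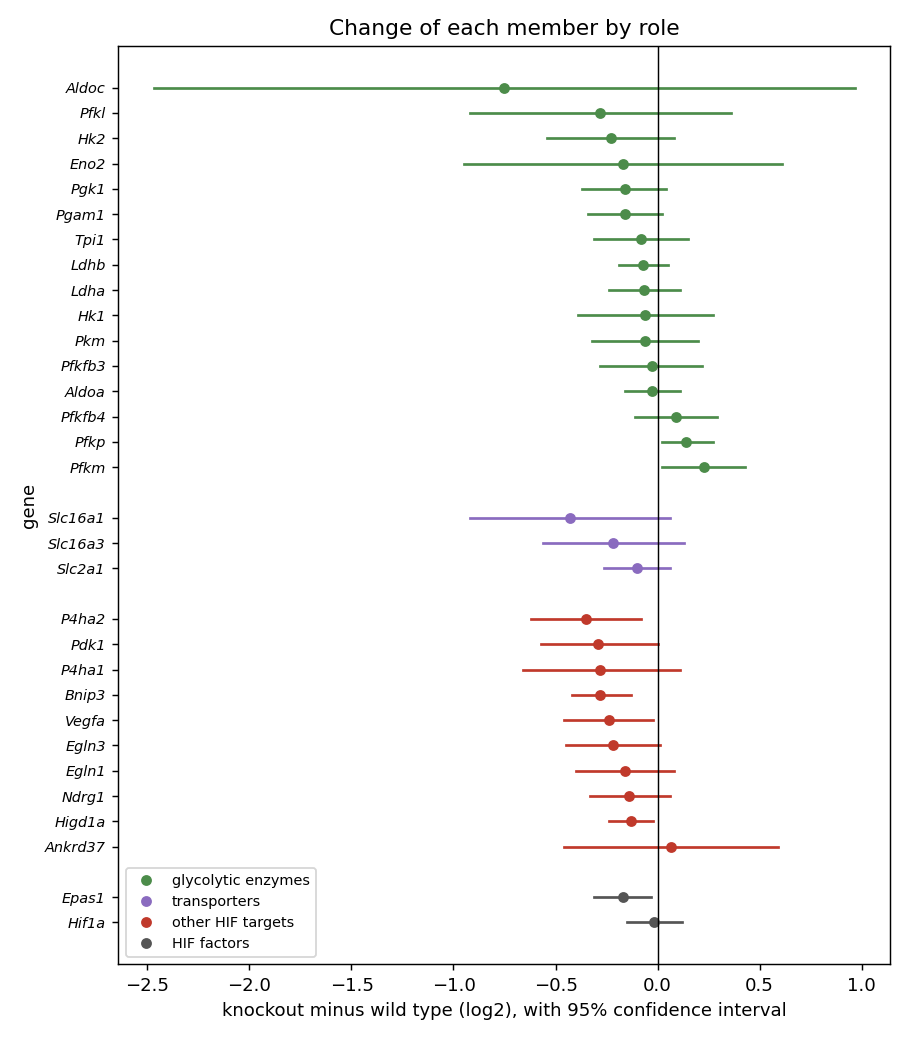
Difference of each tested member (knockout minus wild type, log2; points) with its 95% confidence interval (lines), grouped by role. The 10 other HIF targets lie to the left of 0 with the exception of Ankrd37. Of the 16 glycolytic enzymes, 13 lie to the left of 0 and 3 to the right, from −0.75 for Aldoc to 0.23 for Pfkm.

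The list was divided by role into 18 enzymes of glycolysis and lactate formation with their regulators, 3 membrane transporters, 11 other HIF targets and the 2 HIF alpha subunits. Among the 10 measured HIF targets that are not glycolytic enzymes, 9 had lower means in the knockout, and their median difference was −0.231. Among the 16 measured enzymes, 13 had lower means, with a median of −0.069. At an unadjusted p under 0.05 there were 4 HIF targets, all lower (40.0%, against 7.12% of all genes lower at that p). There were also 2 enzymes, both higher (12.5%), which is close to the 12.8% of all genes that were higher. The 2 groups were set side by side only, and their difference was not tested.

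HIF binds DNA at the hypoxia response element, whose core is ACGTG or GCGTG. The 250 bases upstream of the annotated starts were searched for these letters on both strands in the RefSeq promoter table (build GRCm38.p6), which held 45 windows for 31 of the 34 listed genes. The core was found in 36 of the 45 windows (80%), against 38.6% of all 32851 windows and 48.9% of the windows of genes named on the array. It was found in 23 of 30 windows of the enzymes and in 9 of 11 windows of the other HIF targets, so the letters did not separate these groups. The core overlaps the E-box CACGTG, which was found in 6.02% of all windows. Windows of 1 gene can overlap, and a match shows only that the letters are there.

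The 130 bases just upstream of the start are shown for the 3 HIF targets with the smallest p-values and for Pfkp, the member whose groups did not overlap with the knockout higher, with each core in capitals. They lie at chr7:138909507-138909636 (minus strand) for Bnip3, chr11:54100794-54100923 (plus strand) for P4ha2, chr9:121857797-121857926 (minus strand) for Higd1a and chr13:6648772-6648901 (minus strand) for Pfkp.
Bnip3: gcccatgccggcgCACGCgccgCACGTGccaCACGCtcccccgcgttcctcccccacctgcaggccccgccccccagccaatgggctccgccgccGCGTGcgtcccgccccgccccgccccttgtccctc
P4ha2: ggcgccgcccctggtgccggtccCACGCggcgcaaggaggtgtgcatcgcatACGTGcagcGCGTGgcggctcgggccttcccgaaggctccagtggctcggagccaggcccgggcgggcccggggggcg
Higd1a: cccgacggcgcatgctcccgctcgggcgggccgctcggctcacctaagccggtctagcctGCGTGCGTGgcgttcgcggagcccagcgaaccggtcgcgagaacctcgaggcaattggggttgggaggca
Pfkp: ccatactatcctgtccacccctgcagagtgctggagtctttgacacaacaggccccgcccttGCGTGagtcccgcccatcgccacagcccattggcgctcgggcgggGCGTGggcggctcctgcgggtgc
The Bnip3 stretch holds 4 separate runs of the core, of which 1 is an E-box, P4ha2 holds 3, Higd1a holds 1 run of 2 overlapping cores and Pfkp holds 2. Genes with lower and with higher knockout means thus both carry the core.

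Bnip3, a mitochondrial protein that marks mitochondria for mitophagy, had the smallest p of the list. It stood at 12.82, 13.04, 13.01 and 13.04 in wild type, in the order of replicates 1, 3, 4 and 5, and at 12.79, 12.67, 12.68, 12.75 and 12.61 in the knockout, in the order of replicates 1 to 5, which is kept below. No knockout array reached the lowest wild type one, but the gap was only 0.03 and was set by wild type replicate 1. Its difference was −0.28 (SE 0.065, 1.21-fold lower, adjusted p 0.124). Without wild type replicate 1 the difference was −0.33 with an adjusted p of 0.021, in a fit in which 1051 genes passed (7.34% of all tested), 301 of them lower in the knockout (2.10% of all tested).

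Higd1a, a mitochondrial protein that supports respiration under low oxygen, was the other target whose groups did not overlap. Its wild type levels were almost identical, at 12.56, 12.55, 12.55 and 12.56, and its knockout levels were 12.41, 12.44, 12.41, 12.52 and 12.36. The difference was −0.13 (SE 0.049, 1.09-fold lower, adjusted p 0.201). Over all genes, 2.16% had knockout arrays wholly below wild type. A further Higd1a probe set had a difference of −0.18 (SE 0.14) and another of −0.033 (SE 0.085), so the separation rests on the brightest.

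P4ha1 and P4ha2 encode alpha subunits of collagen prolyl 4-hydroxylase, which modifies collagen chains so that they form stable triple helices. P4ha2 stood at 9.83, 9.31, 9.63 and 9.67 in wild type and at 9.21, 9.06, 9.31, 9.51 and 9.21 in knockout aortas. The groups overlapped through wild type replicate 3, which matched knockout replicate 3 and lay below knockout replicate 4. Its difference was −0.35 (SE 0.12, 1.27-fold lower, adjusted p 0.177) and ran from −0.45 to −0.27 with any 1 array left out. P4ha1 had a difference of −0.28 (SE 0.17, adjusted p 0.394), or −0.17 without wild type replicate 1, and its dimmer probe set one of −0.38 (SE 0.14).

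Vegfa, the growth factor that drives angiogenesis, stood at 10.22, 10.60, 10.53 and 10.72 in wild type and at 10.26, 10.32, 10.28, 10.34 and 10.20 in knockout aortas. Wild type replicate 1 lay among the knockout arrays and the other 3 wild type arrays lay above them all. The difference was −0.24 (SE 0.096, adjusted p 0.216) with all arrays and −0.34 (adjusted p 0.026) without wild type replicate 1. In that second fit 1051 genes passed (7.34% of all tested), and the array left out is the one that made the groups overlap. A dimmer probe set of Vegfa stood at 6.24, 6.82, 6.31 and 6.82 against 6.16, 6.19, 6.21, 6.08 and 5.74, with no overlap (difference −0.47, SE 0.15, adjusted p 0.166 over all named probe sets).

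**Figure D2:**
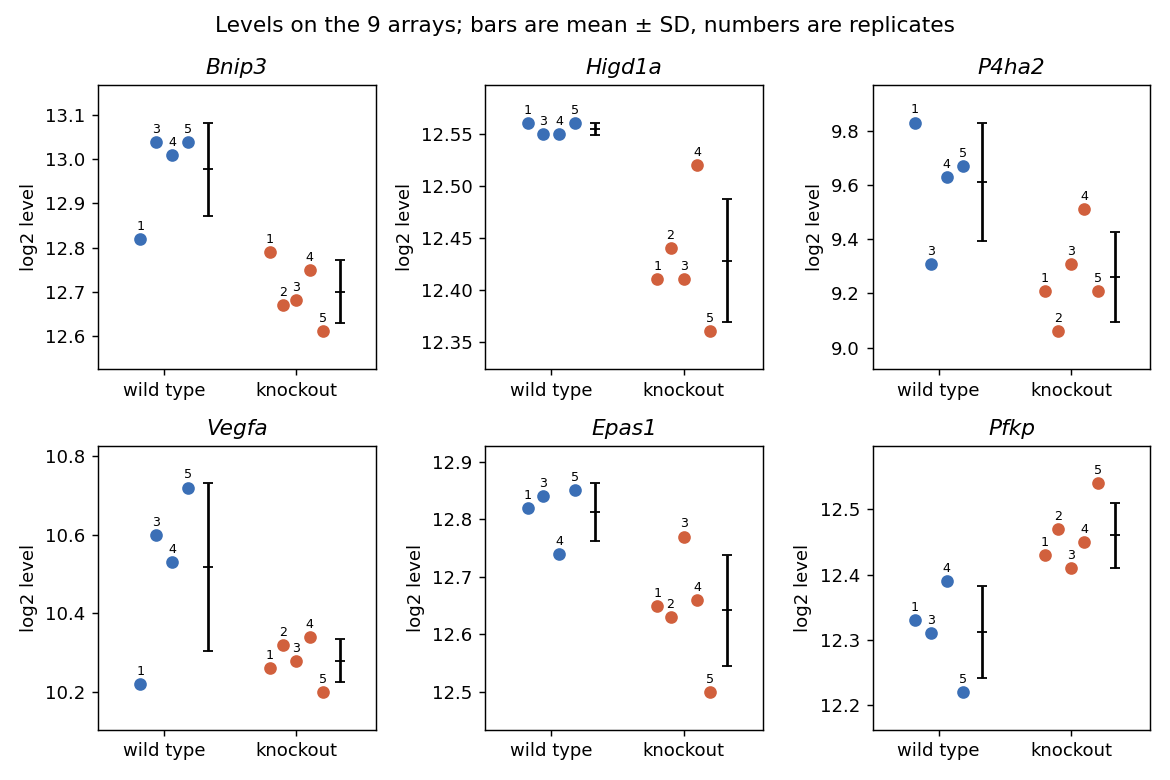
Log2 level of 6 members on each array (points, labelled by replicate) with the mean ± SD of each genotype (bars; n = 4 wild type in blue, n = 5 knockout in orange). Bnip3 and Higd1a lie lower and Pfkp higher on every knockout array than on any wild type array; P4ha2, Vegfa and Epas1 overlap. Each axis covers only the range of its gene.

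Pdk1, which inhibits pyruvate dehydrogenase and so keeps pyruvate out of mitochondria, stood at 9.83, 9.74, 9.61 and 9.56 in wild type and at 9.30, 9.72, 9.56, 9.32 and 9.08 in the knockout. Its groups overlapped through knockout replicates 2 and 3, and the difference was −0.29 (SE 0.13, adjusted p 0.253). Its probe sets disagreed: 2 further ones had a difference of −0.26 (SE 0.12) and −0.15 (SE 0.12), and another of 0.27 (SE 0.17).

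The prolyl hydroxylases that sense oxygen and mark HIF alpha for breakdown are themselves HIF targets. Egln3 stood at 7.88, 7.72, 7.84 and 8.21 in wild type and at 7.55, 7.80, 7.69, 7.63 and 7.78 in the knockout. Its groups overlapped, with wild type replicate 5 highest, and the difference was −0.22 (SE 0.10, adjusted p 0.266), or −0.12 (adjusted p 0.505) without wild type replicate 5. Egln1 had a difference of −0.16 (SE 0.10, adjusted p 0.427), or −0.059 without wild type replicate 1, and a dimmer probe set of it one of −0.30 (SE 0.12).

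Ndrg1, a stress response gene, had a difference of −0.14 (SE 0.085, adjusted p 0.401), or −0.082 without knockout replicate 2, and all 5 of its probe sets had lower means in the knockout, from −0.22 to −0.093. Ankrd37, an ankyrin repeat gene, was the exception among the targets. It stood at 6.88, 6.51, 6.36 and 6.12 in wild type and at 6.40, 6.47, 6.38, 7.27 and 6.14 in the knockout. Knockout replicate 4 alone lay above the wild type range, and the difference of 0.065 (SE 0.23) became −0.12 without that array.

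Hif1a stood at 12.26, 12.29, 12.40 and 12.46 in wild type and at 12.33, 12.27, 12.31, 12.37 and 12.41 in the knockout. The groups lay within the same range, with a difference of −0.015 (SE 0.060) and a 95% confidence interval from −0.15 to 0.12. That interval covers the brightest probe set alone. A further Hif1a probe set had a difference of 0.092 (SE 0.070), and the dimmest one had −0.21 (SE 0.16). HIF-1 alpha is controlled mainly at the level of the protein, which arrays do not measure.

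Epas1 stood at 12.82, 12.84, 12.74 and 12.85 in wild type and at 12.65, 12.63, 12.77, 12.66 and 12.50 in knockout aortas. Only knockout replicate 3 overlapped with wild type, and the difference was −0.17 (SE 0.063, adjusted p 0.193). Its dimmer probe set separated the groups, at 7.47, 7.63, 7.52 and 7.80 against 6.91, 6.71, 7.18, 7.07 and 6.85. The difference there was −0.66 (SE 0.11, adjusted p 0.082) over the 26504 named probe sets tested, of which 0.0792% passed. It was the lowest adjusted p among the 67 probe sets of the members. The mean of 8 endothelial markers lay between 9.01 and 9.54 on wild type and between 8.85 and 9.19 on knockout arrays, with 7 of the 8 lower in the knockout, and its part in the Epas1 result was not tested.

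Among the enzymes, the phosphofructokinases, which commit glucose to glycolysis, had means on either side of wild type. Pfkp stood at 12.33, 12.31, 12.39 and 12.22 in wild type and at 12.43, 12.47, 12.41, 12.45 and 12.54 in the knockout. All knockout arrays lay above all wild type arrays by a gap of 0.02, a pattern that 4.59% of all genes showed in this direction. The difference was 0.14 (SE 0.054, 1.10-fold higher, adjusted p 0.200), with 0.097 (SE 0.10) and −0.062 (SE 0.090) on 2 dim probe sets. The liver form Pfkl had a difference of −0.28 (SE 0.28), and its levels ran from 8.05 to 9.51 over the 9 arrays with both groups spread across that range.

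Pfkm, the muscle form, stood at 9.47, 9.64, 9.56 and 9.52 in wild type and at 9.72, 9.73, 10.06, 9.59 and 9.78 in the knockout. Knockout replicate 3 was the highest and knockout replicate 4 lay inside the wild type range. The difference was 0.23 (SE 0.092, adjusted p 0.222) and 0.15 (adjusted p 0.287) without knockout replicate 3. That array also held skeletal muscle transcripts: the mean of 9 measured skeletal muscle markers was 10.43 there and between 4.73 and 5.32 on the other 8 arrays. None of these markers passed the test between genotypes, and all 9 had higher means in the knockout. Their part in the Pfkm value was not tested beyond leaving the array out.

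Hexokinases trap glucose in the cell by phosphorylation. Hk2, the insulin-responsive form of muscle and fat, had a difference of −0.23 (SE 0.14, adjusted p 0.370), with knockout replicate 5 lowest at 11.17 and the other arrays between 11.54 and 11.94. Hk1, the widely expressed form, had a difference of −0.062 (SE 0.15) and was highest on wild type replicate 3, at 10.95.

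The later steps of the pathway, which regains ATP and forms lactate, gave small differences. Pgam1, phosphoglycerate mutase, stood at 12.12, 12.32, 12.06 and 12.08 in wild type and at 12.06, 12.06, 12.06, 11.92 and 11.81 in the knockout. Wild type replicate 3 lay highest and knockout replicate 5 lowest, while the middle of both groups lay together (difference −0.16, SE 0.079, adjusted p 0.288). Pgk1, phosphoglycerate kinase, had a difference of −0.16 (SE 0.090), and triosephosphate isomerase Tpi1 one of −0.081 (95% confidence interval −0.31 to 0.15). Aldoa, the main aldolase of muscle, had a difference of −0.027 (95% confidence interval −0.16 to 0.11), and pyruvate kinase Pkm one of −0.060 (−0.32 to 0.20). The lactate dehydrogenase genes had a difference of −0.066 for Ldha (−0.24 to 0.11) and −0.071 for Ldhb (−0.19 to 0.05). The intervals of Tpi1, Aldoa, Pkm, Ldha and Ldhb all lie within a 1.5-fold difference in either direction.

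Pfkfb3 and Pfkfb4 make fructose 2,6-bisphosphate, the strongest activator of phosphofructokinase. Pfkfb4 stood at 6.70, 6.35, 6.40 and 6.26 in wild type and at 6.50, 6.52, 6.53, 6.44 and 6.60 in the knockout. The knockout arrays lay inside the wild type range, which wild type replicate 1 extends upwards, and the difference was 0.093 (SE 0.088, adjusted p 0.578). Pfkfb3 had a difference of −0.028 (SE 0.11), and its dimmer probe set one of −0.35 (SE 0.17).

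Aldoc and Eno2 are the aldolase and enolase typical of nervous tissue, and they varied most on single arrays. Aldoc stood at 5.19, 8.75, 5.70 and 5.34 in wild type and at 7.08, 5.20, 5.09, 5.14 and 4.97 in the knockout. Wild type replicate 3 and knockout replicate 1 were far above all others. Eno2 showed the same 2 arrays highest, at 11.87 and 10.90, with the other 7 between 10.08 and 10.43. The mean of 9 neuron markers was 11.12 and 9.34 on these arrays and between 4.85 and 7.89 on the others. All 9 neuron markers had lower means in the knockout and 0 passed the test. The differences were −0.75 (SE 0.76, adjusted p 0.605) for Aldoc and −0.17 (SE 0.34, adjusted p 0.812) for Eno2. Without these 2 arrays, a choice made after seeing the data, they were −0.31 (adjusted p 0.349) and 0.13 (adjusted p 0.486). For Aldoc, leaving out wild type replicate 3 alone gave 0.082, and leaving out knockout replicate 1 alone gave −1.15.

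The transporters pass glucose in and lactate out. Slc2a1 (GLUT1), the basal glucose transporter, had a difference of −0.10 (SE 0.072, adjusted p 0.457), and Slc16a3 (MCT4), which exports lactate, one of −0.22 (SE 0.15, adjusted p 0.451). Slc16a1 (MCT1), which carries lactate and pyruvate, stood at 10.69, 11.51, 10.58 and 10.86 in wild type and at 10.63, 10.76, 10.72, 10.23 and 10.08 in the knockout. Wild type replicate 3 was the highest and knockout replicates 4 and 5 were the lowest, with the rest together (difference −0.43, SE 0.22, adjusted p 0.301). Without wild type replicate 3 its difference was −0.23.

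**Figure D3:**
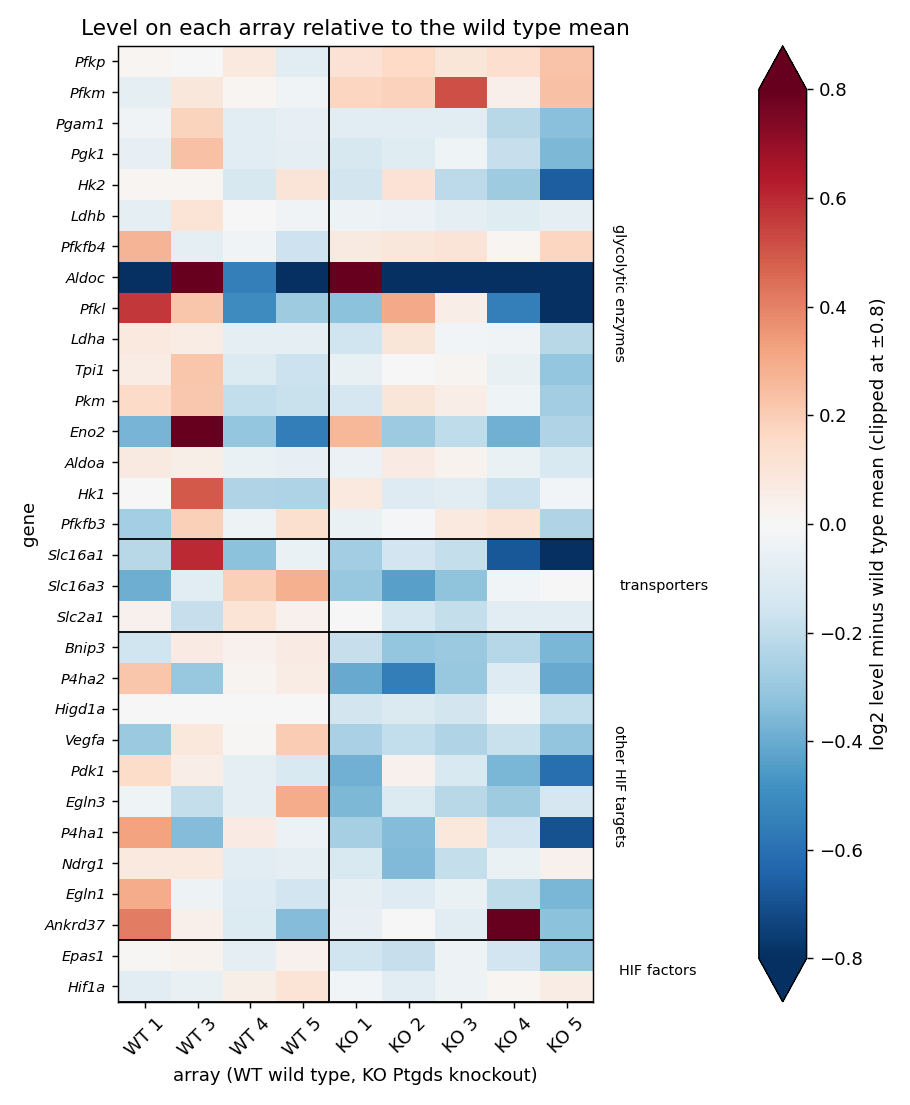
Log2 level of each tested member on each array minus its mean over the 4 wild type arrays, with rows grouped by role (WT wild type, KO knockout; colours clipped at ±0.8). Knockout replicate 5 is the lowest array for 17 of the 31 members, and wild type replicate 3 is the highest for 11. The same count over all tested genes was not made. The other HIF targets are mainly blue on all knockout arrays.

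Across arrays, knockout replicate 5 was the lowest of the 9 for 17 of the 31 members, and wild type replicate 3 was the highest for 11 and the lowest for 0. How often these arrays were lowest or highest over all tested genes was not counted, so this is not shown to be particular to the members. The median deviation over all tested genes was 0.042 on knockout replicate 5 and −0.040 on wild type replicate 3. Taken as each gene's difference from its wild type mean, the median over the 10 other HIF targets lay between −0.038 and 0.113 on the wild type arrays and between −0.345 and −0.159 on the knockout arrays. The median over the 16 enzymes lay between −0.087 and 0.181 on wild type and between −0.244 and 0.035 on knockout arrays. The array medians of the HIF targets did not overlap between genotypes while those of the enzymes did. Medians over all 31 members, which hold these targets, did not overlap either (wild type −0.073 to 0.060, knockout −0.276 to −0.084). How often lists of like size do so was not counted. Each gene was set against its own wild type mean, so the wild type medians are centred by construction. The members were also chosen with earlier results of these data known. No test was made of these medians.

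**Figure D4:**
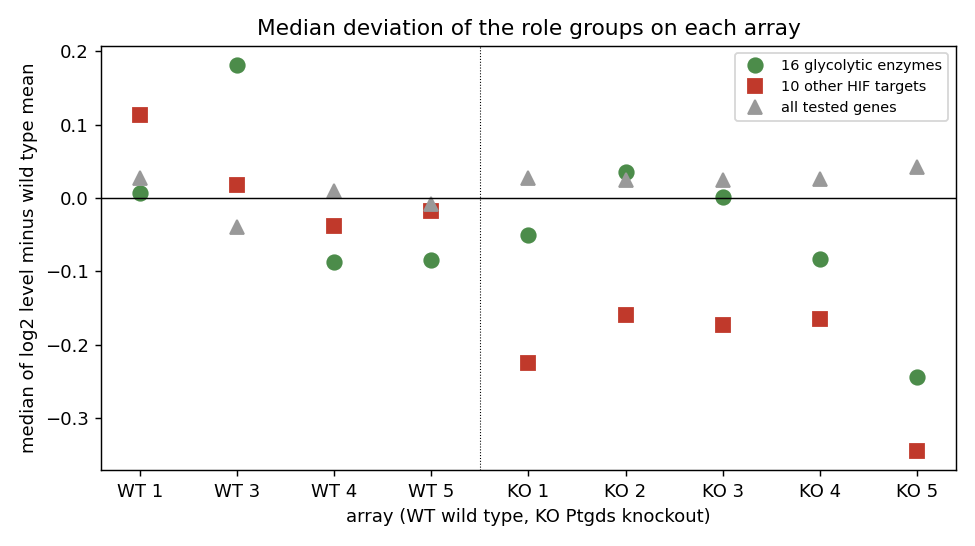
Median over the 16 glycolytic enzymes (circles), the 10 other HIF targets (squares) and all 14321 tested genes (triangles) of the log2 level minus the gene's wild type mean, on each array. The squares lie between −0.345 and −0.159 on the 5 knockout arrays, below all 4 wild type arrays, and the circles overlap between genotypes.

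Brown adipocytes are rich in glycolytic enzymes and monocarboxylate transporters, and fat of this kind surrounds the mouse aorta. The mean of 8 brown adipocyte markers lay between 10.88 and 11.62 on wild type and between 10.25 and 10.96 on knockout arrays, with all 8 lower in the knockout and 0 called in limma. Of these markers, 7 lay over a log2 value of 4 on every array. Wild type replicate 3 had the highest mean and knockout replicates 4 and 5 the lowest, at 10.44 and 10.25. Slc16a1 followed the same order at both ends, and Hk2 was lowest on the same 2 arrays. Bnip3 was also lowest on knockout replicate 5, at 12.61, as were 17 of the 31 members in all. With the mean of these markers as a covariate, an alternative chosen after seeing the data, the median over the enzymes was 0.105 and 1 of 16 was lower in the knockout. The difference of Slc16a1 was then 0.090 and that of Hk2 0.004. The other transporters moved the other way, Slc16a3 from −0.22 to −0.50 (adjusted p 0.286) and Slc2a1 from −0.10 to −0.19. Because the markers themselves were lower in the knockout, this fit cannot tell their part from that of genotype. The median over the other HIF targets was −0.211 in that fit, with 9 of 10 lower. In that fit the difference was −0.26 for Bnip3, −0.13 for Higd1a, −0.24 for Vegfa, −0.23 for P4ha1 and −0.19 for Ndrg1. It was larger for P4ha2 (−0.51) and Egln3 (−0.32), and nearer to 0 for Pdk1 (−0.051) and Egln1 (−0.012) as well as for the HIF subunit Epas1 (−0.097). The mean of 8 general adipocyte markers lay between 10.74 and 11.22 on wild type and between 10.07 and 11.02 on knockout arrays. With it as a covariate the medians were −0.037 for the enzymes and −0.168 for the other HIF targets, and 3 members had an unadjusted p under 0.05, in a fit in which 10.1% of all genes did. All 8 general adipocyte markers were lower in the knockout, and 0 were called. The 8 macrophage markers were also all lower by their means, with 0 called, and their mean lay between 8.71 and 9.76 on wild type and between 8.89 and 9.11 on knockout arrays. The part of the macrophage markers in the results was not tested.

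**Figure D5:**
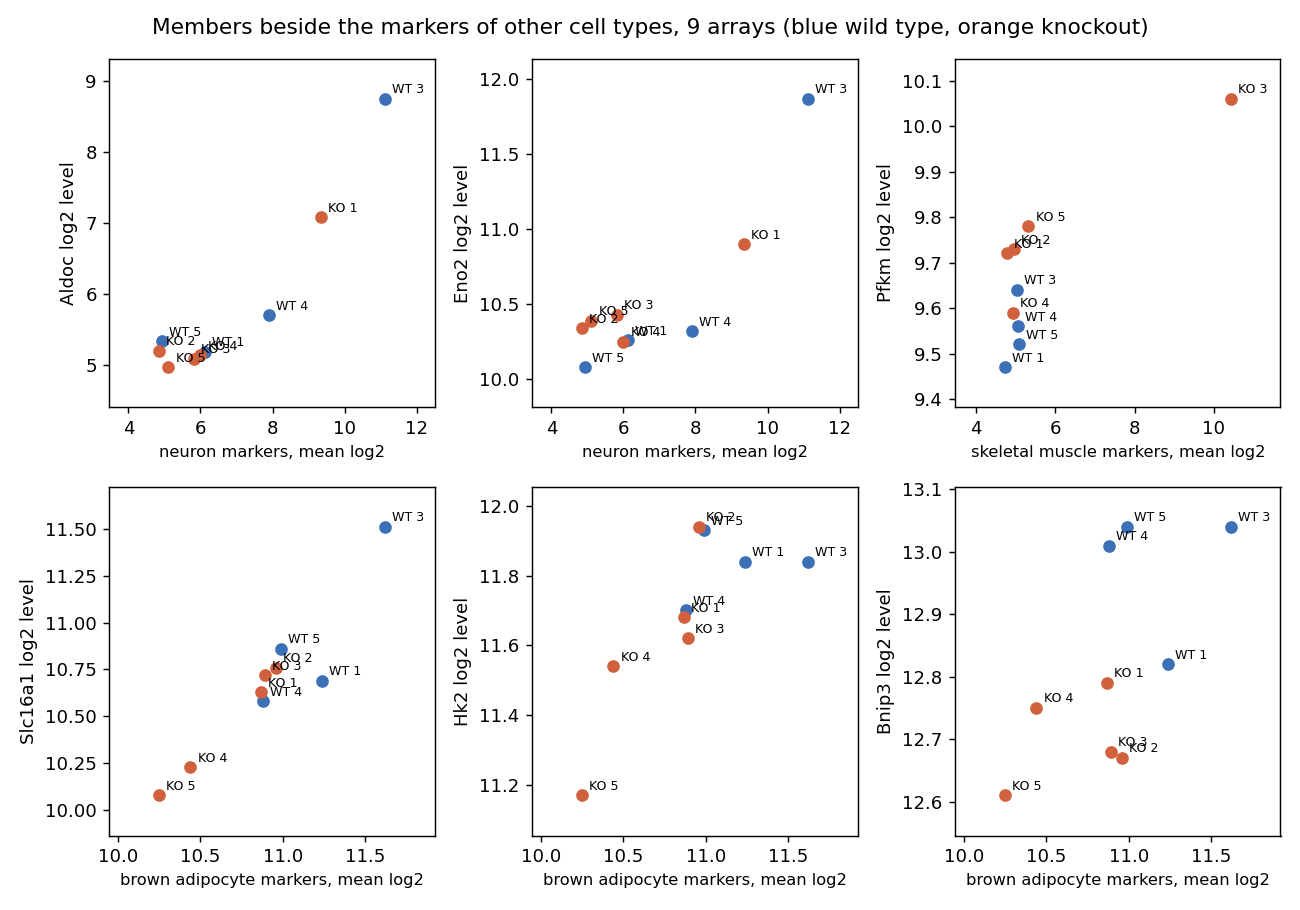
Log2 level of 6 members against the mean log2 level of the markers of another cell type on the same array (blue wild type, orange knockout; labels are arrays). Aldoc and Eno2 are highest on the 2 arrays with most neuronal transcripts, and Pfkm on the array with skeletal muscle transcripts. Slc16a1, Hk2 and Bnip3 are lowest on knockout replicate 5, where brown adipocyte markers are lowest.

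Wider lists of the same pathways, which hold none of the members, are given for comparison, without a test against the members. Of 63 measured genes, 37 were lower and 26 higher, with a median difference of −0.035. In limma 0 passed the adjusted threshold. At an unadjusted p under 0.05 there were 14, 9 lower and 5 higher, a share of 22.2% beside the 19.9% of all genes. The groups did not overlap for 7 genes (11.1%), against 6.76% of all genes. Of these 7, 4 were lower and 3 were higher in the knockout.

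Among 28 further genes of glucose, glycogen and pyruvate metabolism, 17 were lower (median −0.099). Gys1, the muscle glycogen synthase, stood at 8.96, 9.11, 9.17 and 9.01 in wild type and at 8.52, 8.73, 8.79, 8.72 and 8.66 in the knockout, with no overlap (difference −0.38, SE 0.072, adjusted p 0.093). Ldhd, the mitochondrial D-lactate dehydrogenase, also separated the groups, at 10.32 to 10.82 against 9.89 to 10.15 (difference −0.48, SE 0.10, adjusted p 0.105). Pdk4, a pyruvate dehydrogenase kinase induced by fasting and glucocorticoids, had a difference of −0.19 (SE 0.053, adjusted p 0.136). The muscle forms Eno3 and Pygm, enolase and glycogen phosphorylase, stood at 0.64 (SE 0.21) and 0.58 (SE 0.19), both highest on knockout replicate 3. Every knockout array lay above every wild type array for Eno3, by a gap of 0.06, while the groups overlapped for Pygm.

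Among 35 further genes of the hypoxia response, 20 were lower (median −0.022). Angptl4, a lipase inhibitor under control of HIF and PPAR factors, stood at 10.30, 11.00, 10.36 and 10.58 in wild type and at 9.81, 9.73, 9.93, 10.05 and 9.52 in the knockout, with no overlap (difference −0.76, SE 0.16, adjusted p 0.105). Anxa2, a calcium-dependent membrane protein, had a difference of −0.22 (SE 0.065, adjusted p 0.147). Pgf, placental growth factor and a relative of Vegfa, stood at 6.86, 7.46, 7.68 and 7.48 against 6.73, 6.31, 6.49, 7.23 and 6.62, with overlap through wild type replicate 1 and knockout replicate 4 (difference −0.69, SE 0.21, adjusted p 0.150). Adm, a classical HIF target that encodes adrenomedullin, stood at 0.004 (SE 0.086), and Car9, a carbonic anhydrase used as a marker of hypoxia, at 0.35 (SE 0.15, adjusted p 0.248).

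The further probe sets of the members gave a second reading of the same RNA. Of 36 further probe sets over the filter, 32 had the sign of the brightest one and 4 had the other sign. At an unadjusted p under 0.05 there were 6, all lower in the knockout: those of Slc16a1, Vegfa, P4ha1, Egln1, Ndrg1 and Epas1. Over all named probe sets 18.9% reached that p in either direction, and the share lower in the knockout was not counted. Probe sets of 1 gene on the same array are not independent, and 12 members were measured by 1 probe set alone. With any 1 array left out, 24 members kept their sign in all 9 fits, among them 9 of the 10 other HIF targets and 11 of the 16 enzymes.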

How the data were processed

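Per the submitters' processing notes, the authors made the values with GCRMA, a method that subtracts background by probe sequence and then normalizes and summarises probes; version and settings are not given in the sources used here. The deposited values were read as log2, because they run from 1.75 to 14.81 with like quartiles on every array; the labels do not state the scale. The column of wild type replicate 2 is empty. Of 45101 probe sets, 34945 carry a single gene symbol, 932 several and 9160 none, and 64 are controls; only those with 1 symbol were used. A probe set was tested if it lay over 4 on at least 4 arrays, and the brightest represented its gene.

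The 4 wild type and 5 knockout arrays entered a limma 3.58.1 fit (R 4.3.3; lmFit and eBayes without covariates), with Benjamini-Hochberg adjustment over all 14321 genes. The fit was tested on simulated data. The labels call the samples biological replicates without naming the animals, so p-values measure the spread between these arrays. Alternatives changed the scaling, filter, choice of probe set, limma options, covariates, replicate block and arrays included. The members and lists were chosen with earlier results of these data known, so lists are described by counts and medians alone. Values on every array are given for the 10 members with the smallest p, the 2 with the largest change in each direction among the rest, and the HIF subunits; 3 genes with the smallest p are named in each further list, and Eno3, Pygm, Adm and Car9 were chosen after their values were seen. Marker lists for smooth muscle, endothelium, skeletal muscle, neurons, brown and general adipocytes are given beside the results. Cardiomyocyte (6.84 to 9.15), macrophage (8.71 to 9.76), fibroblast (11.38 to 12.12), Schwann cell (6.95 to 9.03) and erythroid (4.79 to 5.81) means lay in these ranges over the arrays, with 6 of 8, 8 of 8, 4 of 6, 1 of 3 and 1 of 2 measured markers lower in the knockout.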

Additional observations from a re-analysis of the deposited data

Results flagged for a closer look

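Within a genotype, 1 array stood apart from the others by Dixon's criterion in 11 of 84 groups examined, 8 of them among the 62 groups of members. Chance gives about 1 in 20 for independent groups, but these were all read on the same arrays. The share over all tested genes was not counted, so the excess is not shown to be particular to the members. Wild type replicate 3 stood apart for Aldoc at 8.75 (other wild type arrays 5.19 to 5.70), Eno2 at 11.87 (10.08 to 10.32) and Pgk1 at 13.26 (12.94 to 12.96). Knockout replicate 1 stood apart for Aldoc at 7.08 (other knockout arrays 4.97 to 5.20), Eno2 at 10.90 (10.25 to 10.43) and the neuron marker mean at 9.34 (4.85 to 6.00). Knockout replicate 3 stood apart for the skeletal muscle marker mean at 10.43 (4.77 to 5.32), knockout replicate 4 for Ankrd37 at 7.27 (6.14 to 6.47) and knockout replicate 5 for Tpi1 at 11.13 (11.38 to 11.46). Wild type replicate 1 stood apart for Bnip3 at 12.82 (13.01 to 13.04) and for the skeletal muscle marker mean at 4.73 (5.03 to 5.07).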

How the results depend on the processing

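The median over the other HIF targets was negative under every alternative run, from −0.253 to −0.168. The median over the enzymes ran from −0.143 to 0.105: it turned to 0.010 with array weights and to 0.105 with the brown adipocyte covariate, and ran from −0.128 to 0.002 with 1 array left out, the 0.002 being without wild type replicate 3. The median over all members turned to 0.012 with the brown adipocyte covariate. The count of members called was 0 under all alternatives except without wild type replicate 1 (range over left-out arrays 0 to 2), where 1051 genes were called in place of 8. Pathway genes called numbered 1 at an adjusted p of 0.10 and 0 to 7 with 1 array left out, the 7 again without wild type replicate 1. The 7 members at an unadjusted p under 0.05 (19.9% of all genes) became 3 with the adipocyte covariate (10.1% of all genes). With 1 array left out there were 3 to 9. The 3 were without wild type replicate 5 (13.2% of all genes) or knockout replicate 5 (15.7%), and the 9 without wild type replicate 3 (15.3%). Among named members, the sign turned for Pdk1 with the probe set of highest variance (0.27), for Pgam1 (0.012), Slc16a1 (0.090) and Aldoc (0.51) with the brown adipocyte covariate, and for Hif1a with the replicate block (0.001). With 1 array left out it turned for Aldoc without wild type replicate 3 (range −1.15 to 0.082), for Ankrd37 without wild type replicate 5 (−0.050) or knockout replicate 4 (range −0.12 to 0.20), and for Hif1a without wild type replicate 5 or knockout replicate 2 (0.001; range −0.046 to 0.021). The causes were not tested. Neuron and brown adipocyte covariates and the fit without both arrays of most neuronal transcripts were added after seeing the data.

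Arrays of the same replicate number (1, 3, 4 and 5) correlated at −0.36, −0.15, 0.06 and 0.21 in their deviations. Among knockout arrays of these numbers, the closest to each was replicate 5, 1, 5 and 5. The labels do not say whether the numbers pair the arrays, and so few correlations cannot decide it. With the replicate number as a block, 0 members and 0 genes were called, 6 members and 13.7% of all genes had an unadjusted p under 0.05, and the median over members was −0.139.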
